A study of Mus musculus with 18 samples.

Results

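Tumors grown from HM-1 cells labelled Cd276KO were compared with tumors grown from control HM-1 cells, 3 libraries against 3, which are 6 of the 18 libraries of the series. The HM-1 line derives from mouse ovarian cancer, and Cd276 codes for B7-H3, a membrane protein grouped with the B7 checkpoint ligands. In each tumor group, 1000000 HM-1 cells were inoculated intradermally into B6C3F1 mice, and RNA was extracted from frozen tumors taken at day 10. The genotype of the implanted cells, control or Cd276KO, is the only labelled difference. The host mice carry no label of a Cd276 deletion, and the sources used here give neither their age nor the number of HM-1 clones behind the Cd276KO cells, nor what the control cells carry. The labels call the libraries biological replicates without saying whether each is from a separate mouse, so the p-values measure the spread between these libraries. The series also holds cultures of the same cells, used here only to show where the tumors differ from them.

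B7-H3 is expressed on many solid tumors and on some stromal and myeloid cells, and it is studied as an inhibitor of T cell and NK cell responses. A tumor that grows in the skin holds the implanted cancer cells together with host macrophages, neutrophils, fibroblasts, vessels and lymphocytes. Cancer cells draw monocytes out of the blood with chemokines such as Ccl2, which binds the receptor Ccr2, and the macrophages that form can take on an alternatively activated state marked by Arg1, Mrc1 and Ccl22. Bulk RNA cannot tell fewer cells of a type from less RNA per cell.

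Total counts ranged from 17349082 to 24711051 per tumor library, and levels are given as CPM, a gene's counts scaled to a library total of 1000000. Control tumor 3 stood apart. It differed from control tumors 1 and 2 by a chi-square of 148.9 and 90.5 per gene, against 45.4 between control tumors 1 and 2 and 13.1 to 39.6 among the Cd276KO tumors, and it lay at the far end of a first principal component that held 55.3% of the variance. Skin keratinocyte markers summed to 313.8 CPM in control tumor 3 and to 8.77 to 12.7 CPM in the 5 others. Of the 17 markers of that list, 16 were highest in control tumor 3, among them Krt14 (107.8 CPM) and Krt5 (51.4 CPM), basal keratins that were at or under 0.14 CPM in every other tumor; 6 of the 17 had no count in control tumors 1 and 2. Control tumor 3 also had the lowest fibroblast sum, 612.5 CPM against 3900 to 20120 CPM, and the highest neutrophil sum, 1240 CPM. Each comparison was therefore fitted with all 6 libraries and again without control tumor 3. A single value is from 6 libraries unless stated otherwise, and both are given where leaving out that library moved the fold of a called gene by over 1.5 times. The part of these markers in the gene results was not tested.

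**Figure D1:**
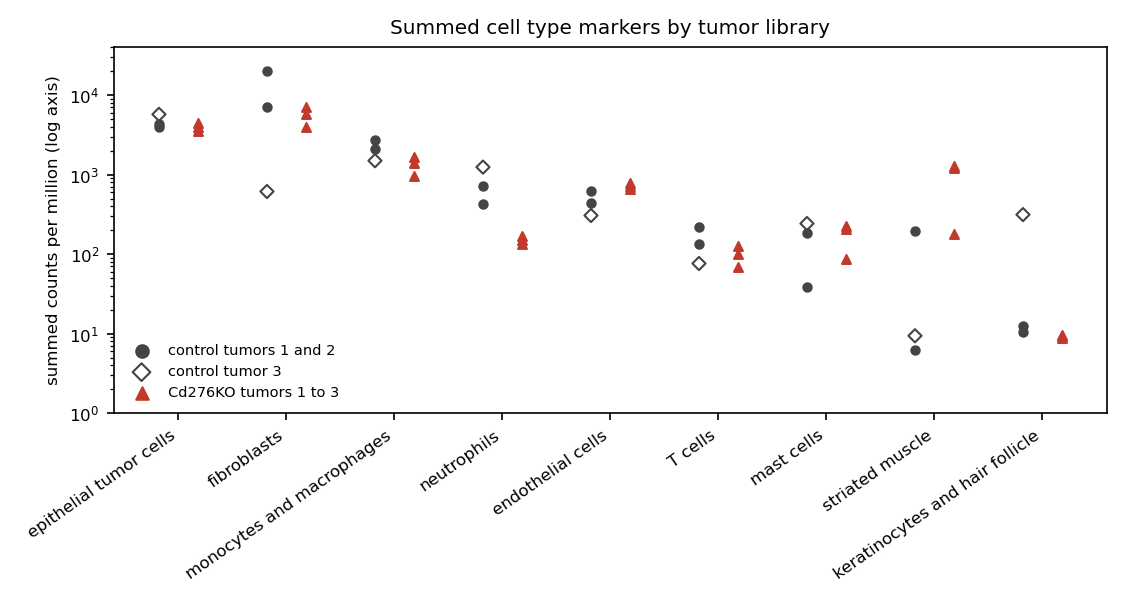
Summed CPM (log axis) of the markers of 9 cell types in each of the 6 tumor libraries; filled circles are control tumors 1 and 2, open diamonds control tumor 3 and triangles the Cd276KO tumors. Control tumor 3 is alone at 313.8 CPM of keratinocyte markers, neutrophil sums of the Cd276KO tumors (134.3 to 171 CPM) lie below all controls (427 to 1240 CPM), and striated muscle is spread over both groups.

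The tumors carried epithelial and stromal RNA. Keratins Krt8 and Krt18 of simple epithelia were at 1588 to 2275 and 984 to 1538 CPM, while Epcam, a defining epithelial marker, was at or under 0.47 CPM in all but control tumor 3 (4.64 CPM). Fibroblast collagen Col1a1 ranged from 240 to 5295 CPM in the controls and from 526 to 1452 CPM in the Cd276KO tumors, so the groups overlapped.

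The targeted gene came first. Cd276 (ENSMUSG00000035914.11, chr9:58524298-58555437, minus strand, GRCm38) was at 142, 107 and 116 CPM in control tumors 1, 2 and 3 and at 73.2, 97.2 and 89.5 CPM in Cd276KO tumors 1, 2 and 3. All Cd276KO tumors lay below all controls, but the difference did not pass the test with 6 libraries (edgeR adjusted p = 0.105; log2 fold change -0.45 with an SE of 0.14) or without control tumor 3 (-0.45, adjusted p = 0.0913). In the cultures the same gene was at 74.2 to 93.5 CPM in control and 44.8 to 47.7 CPM in Cd276KO cells (log2 fold change -0.85, adjusted p = 0.00146). Counts over a whole gene do not check a small edit, and the labels do not say which part of Cd276 was changed.

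A gene is said to rise or fall where the quasi-likelihood test of edgeR gave an adjusted p under 0.05, the adjustment running over the whole table. With all 6 libraries, 338 of 15345 tested genes rose in the Cd276KO tumors (2.2%) and 488 fell (3.18%). The fall was the more marked side by size as well, with 369 genes over 2-fold lower and 177 over 2-fold higher. Without control tumor 3, 760 of 15766 genes rose (4.82%) and 925 fell (5.87%). Each count of called list members below stands against these shares of all tested genes. Of the 826 genes (5.38%) called with 6 libraries, 804 were also called without control tumor 3, all 804 in the same direction. The smallest adjusted p was 0.0146 with 6 libraries and 0.000635 without control tumor 3. DESeq2, the tool the submitters name for their own comparison, called 2270 genes over the 6 libraries, 822 of them among the 826.

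The edgeR calls over 6 libraries rested on each Cd276KO tumor. Leaving out Cd276KO tumor 1, 2 or 3 left 1, 0 and 0 genes called, with 2829, 2851 and 2410 genes at an unadjusted p under 0.05, and DESeq2 called 1344, 1535 and 1142 genes in those same sets. The 1 gene left, without Cd276KO tumor 1, was Abra, a striated muscle gene. Every 6-library call named below therefore ended when 1 Cd276KO tumor was left out. The calls without control tumor 3 numbered 196 when Cd276KO tumor 3 was also left out and 363 when control tumor 1 was.

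Several of the deepest falls were in genes nearly silent in the cultured Cd276KO cells. Gem, a small GTPase that dampens calcium channels, was at 79.2, 105 and 391 CPM in the controls and at 1.34, 2.51 and 1.56 CPM in the Cd276KO tumors (chr4:11704457-11714752, plus strand; log2 fold change -6.71, SE 0.83, adjusted p = 0.0206; without control tumor 3 -5.57, adjusted p = 0.000635). No Cd276KO tumor came near the lowest control. Tmem163, a zinc transporter, was at 14.2, 15.4 and 49.4 CPM in the controls and 0.334, 0.255 and 0.173 CPM in the Cd276KO tumors (-6.65, SE 0.74, adjusted p = 0.0203; without control tumor 3 -5.75). Afp, the fetal plasma protein alpha-fetoprotein, was at 7.37, 7.78 and 14.6 CPM against 0.223, 0.0851 and 0.231 CPM (-5.76, adjusted p = 0.0151; without control tumor 3 -5.33). L1cam, a neural adhesion molecule, was at 21.4, 29.0 and 81.2 CPM against 0.334, 1.28 and 0.749 CPM (-5.76, adjusted p = 0.0225; without control tumor 3 -4.89). Control tumor 3 was the highest library for each of these genes, and control tumors 1 and 2 were on the same side of the Cd276KO tumors.

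Other deep falls spanned neural, junction and protease-inhibitor roles. The neurofilament light chain Nefl fell (-5.79 with 6 libraries and -5.27 without control tumor 3), as did the serine protease inhibitor Spint2 (-5.46 and -4.35), the desmosome protein Dsp (-6.54 and -5.21) and Fam83g (-6.01 and -5.14). Also lower in both fits were the ubiquitin ligase subunit Fbxl16 (-5.89 and -5.27), the adaptor subunit Ap3b2 (-5.57 and -5.04), the synaptic adhesion gene Slitrk6 (-5.04 and -5.54), the GDNF family receptor Gfra4 (-4.83 and -4.03), Xlr (-4.71 and -3.93), the serine protease Tmprss11b (-4.24 and -3.86) and Trim66 (-4.56 and -3.39). Not all of these were lost in culture: Tmprss11b had a mean of 1.10 CPM in control and 1.47 CPM in Cd276KO cultures, and Ap3b2 kept 1.57 CPM of 20.8 CPM. Perp, a p53 target at cell junctions, had 783 counts over the 3 controls and 2 over the 3 Cd276KO tumors, a depth-adjusted ratio of 353 (95% counting interval 97.4 to 2920). Its 35.3 CPM in control tumor 3 stood over 1.78 and 2.91 CPM in control tumors 1 and 2. Without control tumor 3 it had 106 counts against 2, a ratio of 67.7 (18.3 to 566). Counting intervals, here and below, pool the counts of a group and leave out the spread between libraries. Both Perp and Dsp are also epidermal genes, and control tumor 3 was the highest library for each. Moxd1, a monooxygenase-like enzyme with a mean at or under 0.0503 CPM in both culture groups, was at 40.9, 28.2 and 1.51 CPM in the controls and 1.61, 4.21 and 3.23 CPM in the Cd276KO tumors: it fell without control tumor 3 (-3.43, adjusted p = 0.00605) and did not pass the test with it (-2.90, adjusted p = 0.14).

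**Figure D2:**
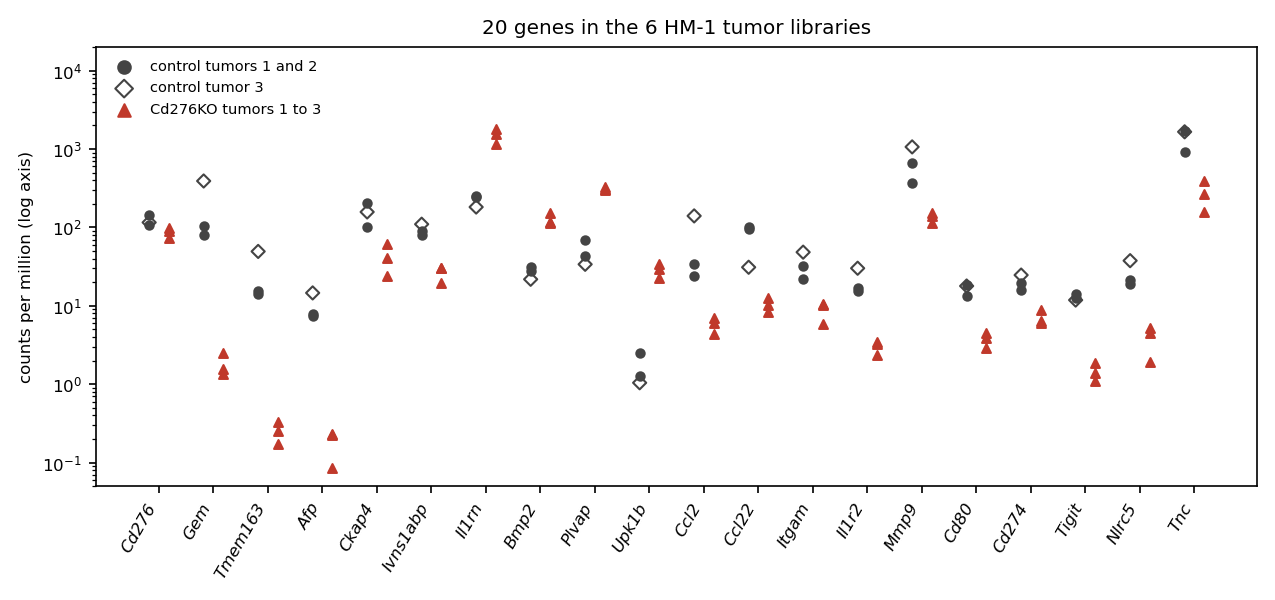
CPM (log axis) of 20 genes in each tumor library; filled circles are control tumors 1 and 2, open diamonds control tumor 3 and triangles the Cd276KO tumors. Gem sits at 79.2 to 391 CPM in controls and 1.34 to 2.51 CPM in Cd276KO tumors, Il1rn at 182 to 251 against 1150 to 1778 CPM, and Cd276 at 107 to 142 against 73.2 to 97.2 CPM.

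The tumors kept RNA of some genes that the cultured Cd276KO cells had almost wholly lost. Taking from the cultures the genes that were called, at least 8-fold different and at a mean of at least 20 CPM in either group gave 31 lower and 2 higher genes. In the tumors all 31 had a negative log2 fold change, 28 did not overlap between groups (20.6% of all tested genes were lower without overlap) and 21 fell by the 6-library test (22 without control tumor 3). Their median log2 fold change was -2.32 in the tumors (-2.01 without control tumor 3) against -5.92 in the cultures, and over all genes tested in the tumors it was -0.03. The genes were picked for a large change in the cultures, and that choice itself favours a smaller change in the tumors. The same limit holds for the shares left that follow.

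These 31 genes split by how much was left. Under 5% of the control level remained in the Cd276KO cultures for 23 of them, and in the tumors 6 of those 23 were again under 5%, 2 were between 5% and 10% and 15 were over 10%. Ckap4, a membrane protein of the rough endoplasmic reticulum, had no count in any Cd276KO culture and 103 to 110 CPM in the control cultures, yet the tumors had 208, 101 and 157 CPM in the controls and 24.2, 62.2 and 40.3 CPM in the Cd276KO tumors, 27.2% of the control mean. That tumor difference passed the test with 6 libraries (-1.85, adjusted p = 0.0446) and not without control tumor 3 (-1.80, adjusted p = 0.0814). Trim44, a TRIM family protein, and Ivns1abp, a kelch protein, were at 24.6% and 28.7% of the control mean in the tumors and at 0.094% and 0.132% in the cultures. Both fell in the tumors, Trim44 (-1.99, adjusted p = 0.0257) and Ivns1abp (-1.77, adjusted p = 0.0206). For these 3 genes the tumor effect differed from the culture effect in a test of the difference itself over all 12 HM-1 libraries (adjusted p = 0.000507, 0.000105 and 1.95e-05). That test uses the culture libraries by which the genes were picked, so it is not independent of the choice. With no count in the Cd276KO cultures, the culture size for Ckap4 is a bound: at least 2126-fold lower, taking a floor of 3 counts over the group. It was 3.58-fold lower in the tumors, and against that point value the difference was at least 9.21 on the log2 scale. The spread of the tumor effect (SE 0.38 on the log2 scale) is not in that bound. Trim44 had 2398 counts in the control and 2 in the Cd276KO cultures, a ratio of 1077 (95% counting interval 298 to 8897), and Ivns1abp had 4185 and 5 (ratio 752, 322 to 2316), against tumor ratios of 3.99 and 3.42.

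Gem, Nefl, Fam83g and Spint2 showed the other pattern, at 0.94%, 1.77%, 1.5% and 2.24% of the control mean in the tumors. Bcam, an adhesion receptor for laminin, and Ucp2, a mitochondrial carrier, lay at the far end, at 98.1% and 73.7% in the tumors and 3.8% and 1.65% in the cultures. Their tumor differences did not pass the test (adjusted p = 0.996 and 0.353). In the cultures, 3452 of 12457 tested genes were called (27.7%), 1450 higher (11.6%) and 2002 lower (16.1%). Of 1976 tested genes that fell in the cultures, 291 (14.7%) also fell in the tumors and 11 rose, and of 1422 that rose in the cultures, 151 (10.6%) rose in the tumors and 14 fell. Among 834 tested genes under 0.1 CPM in all 6 cultures, 13 (1.56%) rose and 26 (3.12%) fell in the tumors, against 3.18% over all genes, and without control tumor 3, 32 of 971 rose (3.3%) and 75 fell (7.72%) against 4.82% and 5.87%.

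**Figure D3:**
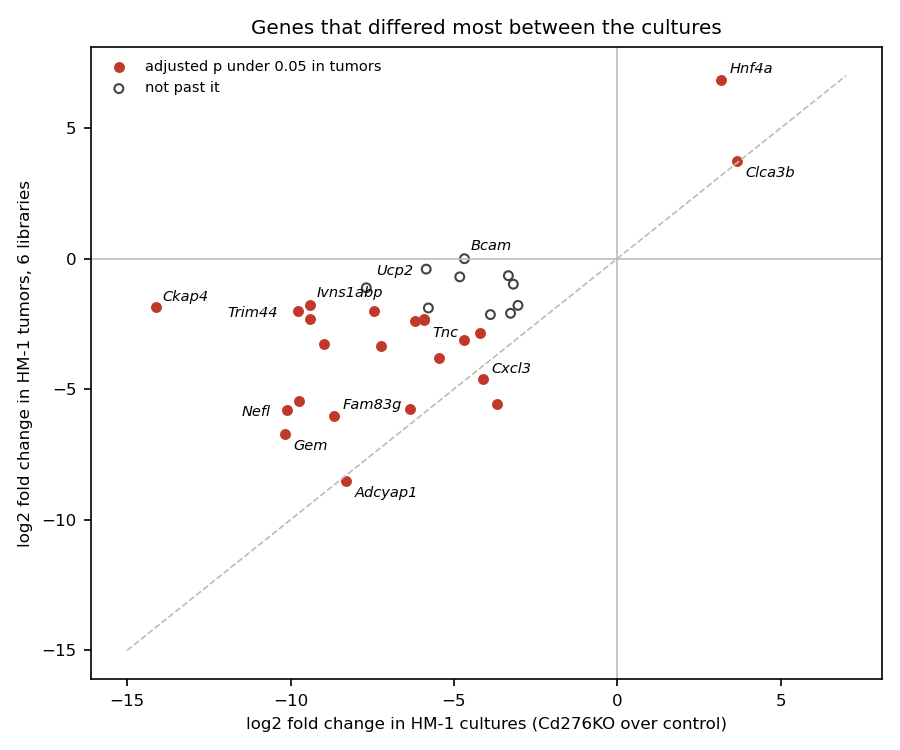
Log2 fold change in HM-1 cultures (horizontal axis) and in HM-1 tumors with 6 libraries (vertical axis) of the 33 genes that differed most between the cultures; filled points passed the tumor test, the dashed line marks equal change. All 31 genes lower in culture are below 0 in the tumors, most of them above the dashed line, with Ckap4 farthest from it. The choice of genes by their culture change favours that side of the line. The place of Ckap4 on the horizontal axis depends on the prior count, since it had no count in the Cd276KO cultures.

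Genes higher in the Cd276KO tumors included Il1rn, Bmp2 and Plvap; among named genes the log2 fold change was highest for the muscle gene Xirp1 (7.42). Il1rn, the secreted antagonist of the interleukin-1 receptor (chr2:24336853-24351494, plus strand), was at 247, 251 and 182 CPM in the controls and 1778, 1150 and 1553 CPM in the Cd276KO tumors (log2 fold change 2.77, SE 0.23, adjusted p = 0.0146; without control tumor 3 2.67, adjusted p = 0.00301). The groups were far apart in every library. Il1b, one of the cytokines it opposes, went the other way, at 44.4, 36.8 and 106 CPM against 11.2, 9.83 and 15.3 CPM (-2.36, adjusted p = 0.0405; -1.67 without control tumor 3). Bmp2, a ligand of the TGF-beta family, was at 31, 28 and 21.8 CPM against 115, 154 and 118 CPM (2.30, SE 0.16, adjusted p = 0.0146; without control tumor 3 2.20). Plvap, which forms the diaphragms of fenestrated endothelium, was at 69.4, 43.8 and 33.8 CPM against 324, 303 and 306 CPM (2.71, SE 0.25, adjusted p = 0.0149; without control tumor 3 2.54). It was the only called member of 13 endothelial markers; Pecam1 and Cdh5 overlapped between groups, and Plvap was at or under 1.93 CPM in all cultures.

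Genes of mixed roles were also among those that rose. The urothelial plaque protein Upk1b was at 1.25, 2.49 and 1.04 CPM against 33.8, 22.8 and 29.3 CPM (4.22, adjusted p = 0.0146; without control tumor 3 4.03). The orphan adhesion receptor Adgrf1 was at 0.971, 1.5 and 0.626 CPM against 26.0, 10.7 and 26.0 CPM (4.38, adjusted p = 0.0206; without control tumor 3 4.17). Higher in both fits as well were R3hdml (5.04 with 6 libraries and 4.55 without control tumor 3), the lipase-like Lipo1 (3.34 and 3.08), the glycosyltransferase Galntl6 (3.07 and 2.64) and the lymphotoxin subunit Ltb (2.22 and 2.44). Both genes picked as higher in culture rose: Clca3b from 0.209 to 0.422 CPM in the controls to 3.73 to 5.48 CPM, and Hnf4a, a transcription factor known from hepatocytes, from 3 counts over the controls to 319 over the Cd276KO tumors (ratio 118, 95% counting interval 40.0 to 575). Mir99ahg, a microRNA host gene (1.94 and 2.44), and BC025446 (2.76 and 2.32) rose only in the fit without control tumor 3. The brain cytoplasmic RNA Bc1, at 6.64, 7.46 and 62.2 CPM against 49.0, 18.5 and 35.7 CPM, rose without control tumor 3 (2.38, adjusted p = 0.0378) and had no clear direction with it (0.44, adjusted p = 0.801).

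Il1rn is printed with each of its 3 start sites in RefSeq because it rose without overlap in every library. Cxcl2 and Cxcl3, a pair of neutrophil chemokine genes of chromosome 5, are printed because both fell in the tumors without control tumor 3. The lines give the 250 bases before a start site, on the plus strand, from RefSeq (GRCm38.p6). Capitals mark matches, on either strand, to the kappaB motif and, in the first line, to the AP-1 letters TGANTCA; runs longer than the motif hold overlapping matches, and the second line holds none.
Il1rn, chr2:24336610-24336859: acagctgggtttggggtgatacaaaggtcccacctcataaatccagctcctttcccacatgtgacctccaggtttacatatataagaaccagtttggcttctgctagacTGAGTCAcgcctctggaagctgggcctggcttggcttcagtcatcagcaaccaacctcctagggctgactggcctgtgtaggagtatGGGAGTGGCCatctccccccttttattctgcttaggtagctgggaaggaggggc
Il1rn, chr2:24345041-24345290: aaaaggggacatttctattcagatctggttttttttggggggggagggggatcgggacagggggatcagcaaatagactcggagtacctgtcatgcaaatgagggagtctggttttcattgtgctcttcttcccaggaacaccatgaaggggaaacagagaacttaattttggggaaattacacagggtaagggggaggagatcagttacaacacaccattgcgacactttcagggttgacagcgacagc
Il1rn, chr2:24345121-24345370: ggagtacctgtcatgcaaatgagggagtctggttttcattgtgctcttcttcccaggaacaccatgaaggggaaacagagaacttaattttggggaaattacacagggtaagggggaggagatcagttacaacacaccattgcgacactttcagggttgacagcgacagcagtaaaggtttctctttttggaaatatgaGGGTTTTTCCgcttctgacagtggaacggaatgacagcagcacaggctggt
Cxcl3, chr5:90785851-90786100: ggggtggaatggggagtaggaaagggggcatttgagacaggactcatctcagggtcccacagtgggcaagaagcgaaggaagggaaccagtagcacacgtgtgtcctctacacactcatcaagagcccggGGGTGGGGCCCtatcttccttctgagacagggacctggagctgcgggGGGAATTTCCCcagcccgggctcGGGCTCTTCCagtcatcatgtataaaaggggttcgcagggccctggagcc
Cxcl2, chr5:90903649-90903898: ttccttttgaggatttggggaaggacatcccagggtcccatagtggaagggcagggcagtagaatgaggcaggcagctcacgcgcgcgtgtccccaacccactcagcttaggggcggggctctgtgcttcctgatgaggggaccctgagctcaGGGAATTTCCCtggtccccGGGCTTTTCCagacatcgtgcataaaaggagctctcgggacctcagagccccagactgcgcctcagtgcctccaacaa
The kappaB motif was in 45.8% of all 32851 windows of this length and AP-1 in 6.75%, so a match is common and marks no binding. The E2-box letters CACCTG (17.2% of windows) and the interferon-stimulated response element (2.98%) were not found in these 5 windows. RefSeq windows were at hand for 82 of the 112 genes that the naming rule chose.

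Several monocyte and neutrophil attractants fell in the Cd276KO tumors. Of 25 tested monocyte and myeloid chemokines and growth factors, 7 fell and 0 rose with 6 libraries. Without control tumor 3, 10 fell and 1 rose. Over all genes, 3.18% fell and 2.2% rose with 6 libraries, and 5.87% and 4.82% without control tumor 3. The list's median log2 fold change was -1.20 with and -1.17 without that library. Ccl2, the main ligand of Ccr2 (chr11:82035571-82037453, plus strand), was at 33.8, 24.1 and 140 CPM in the controls and 4.40, 6.90 and 5.99 CPM in the Cd276KO tumors (-3.52, SE 0.74, adjusted p = 0.0476; without control tumor 3 -2.25, SE 0.21, adjusted p = 0.00355). Every Cd276KO tumor was below the lowest control, and control tumor 3 was the highest of all. In culture Ccl2 was at 13.2 to 18.5 CPM in control cells and at or under 0.205 CPM in Cd276KO cells. The related monocyte chemokines Ccl7 (24.2, 11.9 and 33.1 against 4.84, 6.73 and 6.40 CPM) and Ccl12 (22.3, 22.9 and 36.5 against 6.07, 6.68 and 5.07 CPM) fell in both fits (Ccl7 -1.92 and -1.51, Ccl12 -2.17 and -1.85).

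Growth factors of the macrophage lineage followed the same direction. Csf1 was at 71.4, 51.4 and 59.6 CPM against 17.8, 31.1 and 29.2 CPM (-1.19, adjusted p = 0.0362), and Il34, the other ligand of the Csf1 receptor, at 56.7, 58.4 and 146 CPM against 19.8, 23.1 and 19.1 CPM (-2.06, adjusted p = 0.0432; without control tumor 3 -1.40). Cxcl16 also fell (-0.86), and Csf2 fell only without control tumor 3 (-1.32, adjusted p = 0.00827; -2.07, adjusted p = 0.0553 with it). The neutrophil attractant Cxcl3 was at 62.4, 120 and 350 CPM against 10.1, 3.79 and 7.78 CPM (-4.61, adjusted p = 0.0327; without control tumor 3 -3.59). Cxcl2, at 4.25, 4.83 and 32.4 CPM against 1.78, 1.11 and 2.08 CPM, fell without control tumor 3 (-1.38, adjusted p = 0.0483) and did not pass with it (-3.07, adjusted p = 0.0982). Csf3, the neutrophil growth factor, was the 1 that rose in the tumors, at 0.405, 0.656 and 0.938 CPM against 1.72, 1.87 and 2.25 CPM. Its log2 fold change was 1.95 without control tumor 3 (adjusted p = 0.0275) and 1.58 with it (adjusted p = 0.0737). In the cultures Cxcl3 and Cxcl2 went opposite ways: Cxcl3 was lower in Cd276KO cells (-4.12, adjusted p = 1.51e-05) and Cxcl2 higher (1.16, adjusted p = 0.00571).

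The receptor of Ccl2 did not follow its ligand. Ccr2 was at 41.0, 8.07 and 5.32 CPM in the controls and 6.79, 37.0 and 25 CPM in the Cd276KO tumors, with groups that overlapped (0.38, adjusted p = 0.815), and its direction turned without control tumor 3 (-0.03, adjusted p = 0.987). Mrc1, the mannose receptor, was at 203, 142 and 136 CPM against 54.1, 141 and 107 CPM, again overlapping (-0.64, adjusted p = 0.271). Among 12 tested chemokine receptors, 1 fell with 6 libraries, where 3.18% of all genes fell. It was Ccr1 (47.2, 33.1 and 41.6 against 13.6, 20.6 and 19.9 CPM, log2 fold change -1.14, adjusted p = 0.0335). Without control tumor 3, where 5.87% of all genes fell, 3 receptors fell, adding Cxcr2 (-1.98, and -3.20 with it) and Ccr7 (-2.04).

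Called members of the macrophage lists were lower. Of 18 general monocyte and macrophage markers 2 fell with 6 libraries and 3 without control tumor 3, where 3.18% and 5.87% of all genes fell, and their summed level was 1492 to 2732 CPM in the controls and 966.9 to 1674 CPM in the Cd276KO tumors, which overlap. Those that fell were the integrin Itgam (32.0, 21.7 and 48.3 against 5.79, 10.4 and 10.3 CPM; -1.93, adjusted p = 0.0385), Cd68 (48.0, 40.1 and 39.9 against 18.2, 26.3 and 26.0 CPM; -0.83, adjusted p = 0.038) and, without control tumor 3, lysozyme Lyz2 (-1.27). Cd68 was also present in the cultures, at 5.68 to 5.96 CPM in control cells, and was lower in Cd276KO cells (-0.51, adjusted p = 0.0188). Of the 18 markers, 5 had a positive log2 fold change with 6 libraries and 2 without control tumor 3. Csf1r and Adgre1, which define macrophages, were at 46 to 135 and 4.69 to 29.1 CPM in the controls. In the Cd276KO tumors they were at 35.8 to 81.3 and 9.12 to 19.5 CPM.

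Of 18 alternatively activated genes, 5 fell with 6 libraries and 8 without control tumor 3, and 0 rose in either (medians -0.79 and -1.01). Among all genes, 3.18% and 5.87% fell. Arginase Arg1 was at 91.7, 118 and 204 CPM against 24.6, 11.8 and 26.0 CPM (-2.70, SE 0.44, adjusted p = 0.0294; without control tumor 3 -2.25). The scavenger receptor Msr1 was at 83.7, 73.3 and 75.4 CPM against 23.1, 30.4 and 28.4 CPM (-1.47, SE 0.12, adjusted p = 0.0146; without control tumor 3 -1.45), a separation in which control tumor 3 did not stand out. Ccl22, a ligand of Ccr4, was at 101, 96.6 and 31 CPM against 8.35, 12.7 and 10.3 CPM (-2.81, adjusted p = 0.0272; without control tumor 3 -3.16), and Ccl17 (-1.86) and Ccl24 (-1.92) fell. Chil3 (-4.37), Mgl2 (-0.92) and Il10 (-2.31; -3.73 with it) passed only without control tumor 3. Retnla, a resistin-like marker of the same state, was at 0.243, 0.938 and 0 CPM against 2.34, 16.7 and 10.3 CPM and did not pass (4.64, adjusted p = 0.0664; 4.13, adjusted p = 0.068 without control tumor 3).

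Neutrophil markers had a lower sum in every Cd276KO tumor than in any control. Their sum over 13 markers was 427, 727 and 1240 CPM in the controls and 134.3, 150.4 and 171 CPM in the Cd276KO tumors. Of 12 tested markers, 5 fell with 6 libraries and 6 without control tumor 3 (medians -2.57 and -1.59), against 3.18% and 5.87% of all genes. Most members of some unrelated lists were highest in control tumor 3, and so were 10 of these 13 markers. The share over all genes is not given here. The list holds Mmp9, a gelatinase other cells make too, which made up most of the sum: 368, 670 and 1063 CPM against 115, 138 and 151 CPM (-2.37, adjusted p = 0.0312; -1.88 without control tumor 3). Csf3r, the receptor of the neutrophil growth factor, was at 12.3, 10.6 and 26.4 CPM against 3.90, 4.43 and 4.96 CPM (-1.88, adjusted p = 0.0498). The decoy receptor Il1r2 (16.9, 15.5 and 30.1 against 3.45, 2.34 and 3.23 CPM; -2.77, adjusted p = 0.0226), Clec4d (-2.94; -2.22 without control tumor 3) and Trem1 (-2.12) fell too. Of 4 list members tested in the cultures, 3 fell and 1 rose. Those that fell were Clec4d, Il1r2 and Mmp9 (adjusted p = 0.00111, 0.00709 and 0.00358), with control culture means at or under 1.38 CPM. S100a8 and S100a9, also on the neutrophil list, did not pass the test (adjusted p = 0.144 and 0.119). S100a8 had 3.24, 4.08 and 22.9 CPM in the controls and 0.426 to 2.50 CPM in the Cd276KO tumors. S100a9 had 6.19, 8.21 and 47.9 CPM in the controls and 0.255 to 3.23 CPM in the Cd276KO tumors.

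Lymphocyte RNA was scarce in every tumor. Cd8a reached 0.634 CPM at most and Ifng 0.115 CPM, too low to be tested, and Cd3e was at 0.188 to 1.62 CPM in the controls and 0.111 to 0.98 CPM in the Cd276KO tumors. Of 12 tested T cell markers 0 passed with 6 libraries, and 1 of 13 fell without control tumor 3, Il7r (5.18, 3.38 and 2.97 against 1.22, 1.53 and 1.73 CPM; -1.44, adjusted p = 0.0342). Among 7 tested cytotoxic and NK genes, granzyme Gzmb fell, from 2.71, 2.53 and 7.35 CPM to 0.167, 0.213 and 0.231 CPM (-4.31, adjusted p = 0.0257; -3.57 without control tumor 3). Ccl5 fell without control tumor 3 (-2.04, adjusted p = 0.00862). Over all genes, 3.18% fell with 6 libraries and 5.87% without control tumor 3. Nkg7 and Ncr1, members of the cytotoxic and NK list, were at or under 0.469 CPM throughout.

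The checkpoint ligands Cd80 and Cd274 fell. Of 7 tested B7 family genes, 2 fell and 0 rose with 6 libraries, and 3 of 8 fell without control tumor 3. Among all genes, 3.18% and 5.87% fell. Cd80, a ligand of Cd28 and Ctla4 (chr16:38455561-38496335, plus strand), was at 18.2, 13.3 and 17.9 CPM in the controls and 2.89, 3.83 and 4.44 CPM in the Cd276KO tumors (-2.11, SE 0.24, adjusted p = 0.0206; without control tumor 3 -2.01). In culture it was at or under 0.676 CPM in both genotypes. Cd274, which encodes PD-L1 (chr19:29367455-29388095, plus strand), was at 16, 19.6 and 24.7 CPM against 6.34, 6.09 and 8.93 CPM (-1.47, SE 0.26, adjusted p = 0.0337; without control tumor 3 -1.25). Cd274 was also lower in the Cd276KO cultures (-1.12, adjusted p = 0.0202). Cd86 was below all controls in every Cd276KO tumor and passed only without control tumor 3 (-1.43, adjusted p = 0.0297).

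Of 18 tested checkpoint receptors and ligands, 3 fell with 6 libraries, against 3.18% of all genes: Cd274 and the receptors Tigit and Havcr2. Tigit (chr16:43648867-43664146, minus strand) was at 14.2, 12.7 and 11.8 CPM against 1.11, 1.87 and 1.38 CPM (-3.10, SE 0.26, adjusted p = 0.0146; without control tumor 3 -3.12), and control tumor 3 lay with the other controls. Cultured HM-1 cells, grown without a host, had 19.1 to 19.8 CPM in control and 5.31 to 7.22 CPM in Cd276KO cells, so reads assigned to Tigit were present in the cancer cells themselves. Havcr2, which encodes TIM-3, was at 20.1, 20 and 34.3 CPM against 6.23, 7.54 and 6.97 CPM (-1.82, adjusted p = 0.0269), and in culture it was higher in Cd276KO cells (0.66, adjusted p = 0.0104). Lgals9, a ligand of TIM-3, fell only without control tumor 3 (-0.75, adjusted p = 0.0468). Pdcd1 was below all controls at 0.223 to 0.519 CPM against 0.678 to 1.54 CPM without passing (adjusted p = 0.16).

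**Figure D4:**
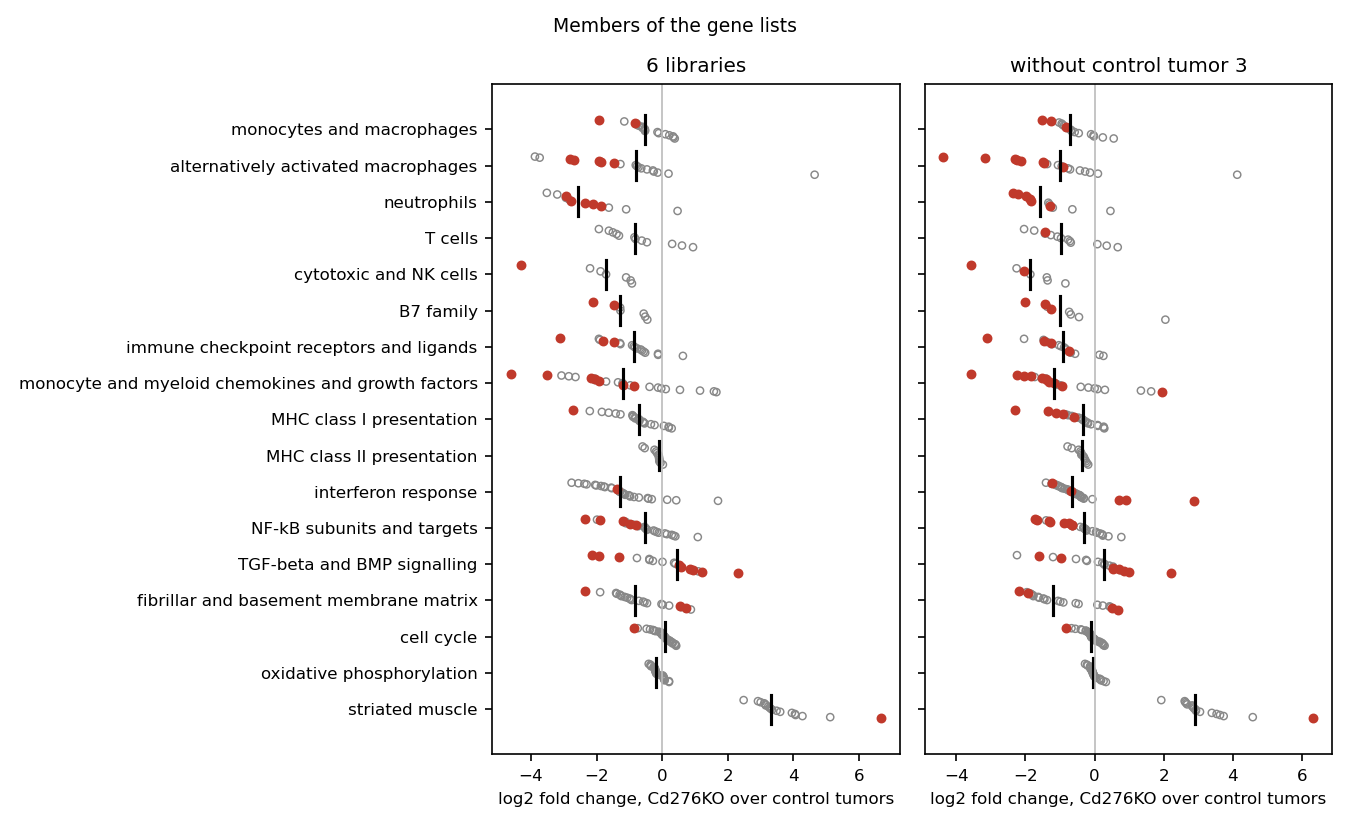
Log2 fold change of each tested member of 17 gene lists, with 6 libraries (left) and without control tumor 3 (right); filled points passed the test and black bars are medians. Called members of the macrophage, neutrophil, checkpoint and chemokine lists lie below 0 apart from Csf3 on the right, TGF-beta and BMP genes lie on both sides, and the striated muscle list is high with 1 called member.

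Of 23 class I antigen presentation genes, 1 fell with 6 libraries, a share near the 3.18% of all genes, and 5 fell without control tumor 3, against 5.87% of all genes (medians -0.70 and -0.35). Nlrc5, the transactivator of class I genes, was at 19.1, 21.1 and 37.6 CPM against 1.95, 4.47 and 5.25 CPM (-2.73, adjusted p = 0.0294; -2.30 without control tumor 3). The heavy chain H2-K1 was at 516, 545 and 1675 CPM against 182, 207 and 201 CPM, with every Cd276KO tumor below every control; it passed without control tumor 3 (-1.36, SE 0.10, adjusted p = 0.00155) and not with it (-2.21, SE 0.50, adjusted p = 0.0558). H2-D1 (-1.11), H2-T23 (-0.90) and H2-Q4 (-0.58) also fell without control tumor 3. With it they were at -1.84, -1.63 and -1.27 and did not pass. In the cultures Nlrc5 (-1.61, adjusted p = 0.00101) and H2-K1 (-1.55, adjusted p = 0.000191) fell as well. Of 12 class II genes 0 passed in either fit; Cd74, the class II invariant chain, was at 765, 411 and 330 CPM against 309, 526 and 450 CPM, and at or under 0.676 CPM in the cultures.

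Most interferon response genes were highest in control tumor 3, as were most members of some unrelated lists. Of 34 interferon genes, 27 were highest in that library. It was 21 of 25 glycolysis and hypoxia genes, 17 of 23 oxidative phosphorylation genes and 0 of 32 cell cycle genes. The share over all genes is not given here. The interferon sum was 412.7, 382.1 and 836.7 CPM in the controls and 313.2 to 320.8 CPM in the Cd276KO tumors. The list's median was -1.29 with control tumor 3 and -0.65 without it. Among all genes, 3.18% fell with 6 libraries, and 5.87% fell and 4.82% rose without control tumor 3. With 6 libraries 1 fell, Ifit2 (8.70, 6.10 and 8.71 against 2.56, 3.53 and 2.77 CPM; -1.37, adjusted p = 0.0415). Without control tumor 3, 2 fell (Ifit2 and the RNA sensor Ddx58, -0.69) and 3 rose: Cxcl11 (2.88; 1.70 with it), the deubiquitinase Usp18 (0.91) and the tethering protein Bst2 (0.72).

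Genes of NF-kB and Stat3 signalling fell in part. Of 26 NF-kB subunits and targets, 5 fell with 6 libraries and 8 without control tumor 3, and 0 rose (medians -0.52 and -0.31). The share of all genes that fell was 3.18% with 6 libraries and 5.87% without control tumor 3. The antiapoptotic Birc3 was at 21.3, 16.3 and 24.6 CPM against 3.17, 7.37 and 5.82 CPM (-1.90, adjusted p = 0.0335; without control tumor 3 -1.71), and the feedback inhibitors Nfkbie (-0.80) and Tnfaip3 (-0.99), the survival gene Bcl2a1b (-1.20) and Il1b fell too. Stat3 was at 137, 139 and 198 CPM against 81.8, 88.1 and 95.3 CPM, without overlap (-0.81, adjusted p = 0.0567; without control tumor 3 -0.57, adjusted p = 0.0135). Of 19 Stat3 and IL-6 genes, 2 fell with 6 libraries: Il11 (27.2, 35.8 and 116 against 3.95, 5.24 and 3.86 CPM; -3.77, adjusted p = 0.0314; without control tumor 3 -2.78) and the feedback inhibitor Socs3 (95.6, 86.4 and 133 against 43.1, 49.6 and 54.6 CPM; -1.07, adjusted p = 0.0389). Without control tumor 3, 5 fell, adding Stat3, the kinase Jak2 (-0.71) and oncostatin M, Osm (-1.64; -2.31 with it).

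TGF-beta and BMP genes moved in both directions. Of 20 tested, 6 rose and 3 fell with 6 libraries, and 6 rose and 2 fell without control tumor 3. Among all genes, 2.2% rose and 3.18% fell with 6 libraries, and 4.82% and 5.87% without control tumor 3. Besides Bmp2, those that rose were the activin subunit Inhba (126, 121 and 117 against 156, 196 and 158 CPM; 0.52), Tgfbi, a matrix protein induced by TGF-beta (182, 147 and 125 against 260, 279 and 307 CPM; 0.94), and the signal transducers Smad3 (0.58), Smad6 (1.20) and Smad7 (0.83), the last pair being inhibitory Smads. Id2, an inhibitor of helix-loop-helix factors, was at 64.3, 48.6 and 91.4 CPM against 19.4, 17.5 and 16 CPM (-1.92, adjusted p = 0.0253), and the coreceptor Tgfbr3 fell (-1.31). The matricellular gene Ccn2 was at 177, 59.8 and 84.2 CPM against 17.4, 24.1 and 29.6 CPM; it fell with 6 libraries (-2.13, adjusted p = 0.0389) and did not pass without control tumor 3 (-2.24, adjusted p = 0.0581).

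Matrix genes were split between a few members. Laminin chains Lamb1 (531, 616 and 488 against 748, 808 and 777 CPM; 0.55) and Lamc1 (377, 448 and 338 against 553, 702 and 620 CPM; 0.73) rose in both fits. Tenascin C, Tnc, was at 1682, 914 and 1656 CPM against 159, 386 and 270 CPM (-2.36, SE 0.38, adjusted p = 0.0291; -2.19 without control tumor 3). Of 24 matrix genes, 2 rose and 1 fell with 6 libraries, where 2.2% of all genes rose and 3.18% fell. Without control tumor 3, 2 rose and 2 fell, where 4.82% of all genes rose and 5.87% fell. Periostin Postn was added there, at 1865, 1040 and 70.6 CPM against 226, 534 and 333 CPM (-1.93, adjusted p = 0.037, and with control tumor 3 -1.38, adjusted p = 0.41). Fibroblast markers varied within both groups: their sum was 20120, 7022 and 612.5 CPM in the controls and 3900, 7089 and 5703 CPM in the Cd276KO tumors, and 0 of 13 passed with 6 libraries.

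Both plasminogen activators rose with 6 libraries. Plau (urokinase) was at 124, 169 and 167 CPM against 294, 233 and 287 CPM (0.86, adjusted p = 0.0483) and Plat (tissue activator) at 299, 212 and 199 CPM against 339, 429 and 449 CPM (0.82, adjusted p = 0.0479). The macrophage elastase Mmp12 fell in both fits (-1.44 and -1.12), and Mmp13 (-1.31; -2.10 with it) and Adam8 (-1.04) only without control tumor 3. Of 19 tested proteases and inhibitors, 2 rose and 3 fell with 6 libraries, against 2.2% and 3.18% of all genes.

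Stress and p53 genes were partly lower. Over all genes, 3.18% fell with 6 libraries, and 5.87% fell and 4.82% rose without control tumor 3. Of 22 p53 targets 3 fell with 6 libraries, Perp, Ccng1 (-0.60) and Polk (-0.83), and without control tumor 3, 8 fell and 1 rose, the antiproliferative gene Btg2 (43.7, 53 and 52.5 against 90.8, 65.2 and 79.4 CPM; 0.78). Mdm2, which encodes the p53 ubiquitin ligase, was at 175, 204 and 415 CPM against 90.2, 106 and 98.5 CPM and passed only without control tumor 3 (-0.88, adjusted p = 0.00645). Of 18 immediate early and heat shock genes, 3 fell with 6 libraries: the phosphatase Dusp1 (42.9, 44.3 and 127 against 11.5, 12.4 and 13 CPM; -2.53, without control tumor 3 -1.75), Jun (184, 152 and 199 against 89.4, 111 and 103 CPM; -0.79) and the chaperone Hsph1 (215, 251 and 227 against 134, 90.3 and 112 CPM; -1.0).

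Striated muscle genes were high in the Cd276KO tumors but varied from tumor to tumor. The sum of 18 muscle markers was 196.6, 6.19 and 9.44 CPM in the controls and 181, 1210 and 1284 CPM in the Cd276KO tumors, so control tumor 1 lay above Cd276KO tumor 1. All 18 had a positive log2 fold change, with a median of 3.33 (2.91 without control tumor 3), and 1 passed, the fast myosin Myh2 (0.364, 0 and 0.0521 against 13.7, 6 and 25.8 CPM; 6.67, adjusted p = 0.0272; without control tumor 3 6.33, adjusted p = 0.0345). Skeletal actin Acta1 was at 55.6, 0.188 and 0.313 CPM against 59.4, 393 and 393 CPM (adjusted p = 0.226). Other muscle genes led the risers with 6 libraries and lost the call without control tumor 3: Xirp1 (7.42, adjusted p = 0.0327; 7.14, adjusted p = 0.0807), Csrp3 (6.04, 0.0279; 6.11, 0.0692), Hspb7 (5.42, 0.0385; 5.11, 0.095) and Myo18b (5.23, 0.0398; 4.80, 0.0542), each pair giving the log2 fold change and adjusted p with and without that library. The intermediate filament Des did likewise (2.34, adjusted p = 0.0335; 2.31, adjusted p = 0.0651). The muscle markers summed to 2.92 to 3.76 CPM in the cultures, and their part in other differences was not tested.

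Few genes of core cell machinery passed the test. With 6 libraries 2.2% of all genes rose and 3.18% fell, so 1 call in a list of 25 or 32 is near those shares. Without control tumor 3 the shares were 4.82% and 5.87%. Of 32 cell cycle genes 1 fell, the S phase cyclin Ccne2 (41.4, 31.1 and 35.3 against 18.4, 20.9 and 18.4 CPM; -0.86, adjusted p = 0.0294), and Mki67 overlapped between groups. Of 23 oxidative phosphorylation genes 0 passed in either fit; Atp5b was at 794 to 1015 CPM in the controls and 985 to 1090 CPM in the Cd276KO tumors. Of 25 glycolysis and hypoxia genes, hexokinase Hk2 rose (0.57, adjusted p = 0.0483), and without control tumor 3 the lactate transporter Slc16a3 fell (-0.70). The lanosterol synthase Lss was the 1 of 25 cholesterol and fatty acid genes that rose (0.66, adjusted p = 0.0441). Of 20 genes of the unfolded protein response and Atf4, 0 passed with 6 libraries and 2 rose without control tumor 3, the cystine transporter Slc7a11 (0.85) and the protein disulfide isomerase Pdia4 (0.58). Of 17 tested complement genes 2 fell, the anaphylatoxin receptor C5ar1 (33.0, 22.6 and 31.1 against 8.40, 14.3 and 9.51 CPM; -1.40, adjusted p = 0.034) and Itgam.

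Among the remaining cell type lists, the epithelial list held called members. Of its 10 tested markers 2 fell with 6 libraries, Perp and Dsp, where 3.18% of all genes fell, and Cdh1, the epithelial cadherin, also without control tumor 3 (9.83, 4.97 and 13.2 against 1.78, 3.28 and 2.08 CPM; -1.55, adjusted p = 0.0481). Of 11 dendritic cell markers 0 passed with 6 libraries, and Ccr7 and the actin bundler Fscn1 (-1.41, adjusted p = 0.0495) fell without control tumor 3. Of 8 mast cell markers 0 passed in either fit, and their sum was 182.7, 38.2 and 242.5 CPM in the controls and 85.8, 228 and 206 CPM in the Cd276KO tumors. None of the 5 tested adipocyte markers, 2 red blood cell markers and 1 B cell marker passed with 6 libraries.

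The Cd276KO effect itself was compared between tumors and cultures. In a fit over the 12 HM-1 libraries, 443 of 15623 genes (2.84%) had a tumor effect different from the culture effect, 268 (1.72%) more positive and 175 (1.12%) more negative, and without control tumor 3 it was 913 of 16062 (5.68%). Plau rose in the tumors and fell in the cultures, where control cells had 40.4 to 44.5 CPM and Cd276KO cells 13.4 to 15.4 CPM (difference 2.37, SE 0.19, adjusted p = 8.73e-05). Plvap and Adgrf1 rose in the tumors, while in the cultures Plvap fell and Adgrf1 did not pass the test (differences 4.32 and 5.05, adjusted p = 0.000516 and 0.00099). Tmprss11b fell in the tumors and was at 0.681 to 1.67 CPM in every culture (difference -4.67, adjusted p = 0.000463). For Bmp2 the difference did not pass the test: its change was 2.30 in tumors and 2.34 in cultures (difference -0.05, SE 0.21, adjusted p = 0.968).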

How the data were processed

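RNA-seq of the HM-1 tumors and cultures was used as the authors' deposited table of raw gene counts (54752 genes); per the submitters' processing notes, Trim Galore, STAR and HTSeq were used on GRCm38/mm10, with versions not given in the sources used here, nor whether counting used strand, so antisense and overlapping genes cannot be told apart. Gene names came from GENCODE (54723 identifiers matched, disregarding version suffixes).

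Genes passing edgeR's filterByExpr were fitted with TMM scaling and robust quasi-likelihood tests (edgeR 4.0.16, R 4.3.3), Benjamini-Hochberg adjusted over all genes tested, with the 3 control and 3 Cd276KO tumor libraries or without control tumor 3. The interaction used 12 HM-1 libraries. Levels are CPM of library totals; fold changes are edgeR's, with its default prior count. Named genes were 7 fixed genes, the 12 higher and 12 lower called genes of largest fold change with at least 5 CPM and no overlap, 6 and 6 more without control tumor 3, up to 2 per direction from each list and those most changed in culture; 2 of these genes are not reported here. Genes and lists were chosen with earlier results of these data known. Alternatives were DESeq2 1.42.0, limma 3.58.1 voom with sample weights, other scalings, no filter, a replicate block and leaving out each library. The fits were tested on simulated data.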

Additional observations from a re-analysis of the deposited data

Results flagged for a closer look

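The Cd276KO effect differed between tumors and cultures, by an edgeR interaction test over the 12 HM-1 libraries, for 24 named genes, each value below being the tumor minus culture difference of the log2 fold change. The fitted value was 12.34 for Ckap4 (adjusted p = 0.000507), which had no count in the Cd276KO cultures, so its size depends on the prior count. Only a difference of at least 9.21 can be read, and that against the point value of the tumor ratio. The fitted value was 7.79 for Trim44 (0.000105) and 7.64 for Ivns1abp (1.95e-05), sizes that also rest on few counts in the Cd276KO cultures. These 3 genes, picked by their change in the cultures, had 0 to 0.143 CPM in the Cd276KO cultures and 7.18 to 62.2 CPM in the Cd276KO tumors. Nefl (4.35), Birc3 (4.15) and Tnc (3.56) likewise fell less in the tumors than in the cultures. Csrp3, a muscle gene at or under 0.253 CPM in the cultures, differed by 7.94.

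Among genes that rose in at least 1 tumor fit, the difference was 5.05 for Adgrf1, 4.32 for Plvap, 4.05 for R3hdml, 3.61 for Hnf4a, 2.83 for Mir99ahg, 2.61 for Ltb, 2.37 for Plau, 2.25 for Upk1b, 1.39 for Il1rn and 1.07 for Btg2. Plau and Plvap were lower in the Cd276KO cultures and higher in the Cd276KO tumors. Il1rn, Upk1b, R3hdml and Hnf4a were higher in both. Without control tumor 3 the test of Hnf4a ended at 3.15 (adjusted p = 0.0794).

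Differences below 0 were -4.67 for Tmprss11b, -4.17 for Cxcl2, -2.47 for Havcr2, -2.40 for Cd80, -2.29 for Mrc1, -1.54 for Tigit and -0.91 for Ccne2. Mrc1 was at 15.0 to 19.8 CPM in control cultures and 50.9 to 56.6 CPM in Cd276KO cultures, while in the tumors the groups overlapped. The part of host cells in these differences was not tested.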

How the results depend on the processing

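The 826 calls of the 6 tumor libraries became 2270 with DESeq2, 3194 with limma voom and sample weights (control tumor 3 weighted 0.153, Cd276KO tumor 3 6.88) and 2709 in 1 fit over the 12 HM-1 libraries; other scalings and no filter gave 860 to 963. The 338 higher calls became 938, 1443 and 1100, and the 488 lower calls 1332, 1751 and 1609. The replicate block, for numbers that the labels do not say mark a pairing (correlations of same-numbered tumors -0.602, -0.0156 and -0.0958), gave 0 calls, 0 higher and 0 lower, in edgeR and in limma voom, with 2726 and 2823 genes at an unadjusted p under 0.05. Leaving out each library gave 0 to 1685 calls, 0 to 760 higher and 0 to 925 lower; the lower calls were 0 without any 1 Cd276KO tumor.

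Without control tumor 3, DESeq2 and no filter moved 1685 calls to 2895 and 2796, 760 higher to 1349 and 1225, and 925 lower to 1546 and 1571; leaving out another library gave 196 to 1433 calls, 64 to 619 higher and 132 to 814 lower. The 3452 culture calls ranged from 1725 to 7491. The 443 tumor minus culture calls became 898 with DESeq2, 3077 with weights and 69 with a replicate block within tissue, and 225 to 913 with 1 library left out. Reversals touched genes not called with 6 libraries: Mcpt4 (1.73 with weights, 0.28 with the replicate block), Hbb-bs (0.71 and 0.21), Hba-a1 (0.18 with weights), Pnpla2 (0.00498 with weights) and Atp5a1 (-0.0753 with weights). With 1 of the 6 libraries left out, log2 fold changes ran from -0.129 to 1.78 for Ccr2, -0.0235 to 2.38 for Bc1, -0.106 to 1.49 for Ighm, -0.157 to 1.06 for Tpsb2, -0.627 to 0.929 for Mcpt4, -0.221 to 0.118 for Pnpla2, -0.448 to 0.678 for Hbb-bs, -0.383 to 0.224 for Cd74 and -0.0565 to 0.0971 for Atp5a1. With 1 more left out beside control tumor 3, they ran from -0.77 to 1.56 for Ccr2, -0.687 to 0.894 for Ighm, -0.167 to 0.462 for Pnpla2, -0.867 to 1.42 for Hbb-bs, -0.912 to 0.816 for Hba-a1 and -0.762 to 0.119 for Cd74. The cause was not tested. Depth limits genes such as Cd8a and Ifng, at most 0.634 CPM.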
